A study of Mus musculus with 10 samples.

Results

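Myc, its dimerization partners and a set of nucleolar and ribosome biogenesis genes, 40 genes in all, were followed through 10 mouse pancreatic cancer cell lines. The genes were chosen by name, as Myc, 5 genes of its network and 34 genes known as nucleolar factors or growth-related MYC targets. All 40 were found among the 49568 genes of the deposited table, and all 40 were among the 13089 genes tested, those at 10 normalized counts or more in 5 or more lines. The lines fall into 2 genotypes, 5 labelled KPC and 5 labelled KPCAf/f, and each line gave 1 library of mRNA from cells in culture. In this field KPC usually stands for a pancreatic cancer model in mice that is made with a Cre recombinase, a background that both genotypes would share. The labels spell out neither name. A is read here as Arid1a, a SWI/SNF chromatin remodelling subunit named in the title of the series, and f/f is read as floxed. Neither the driver of the recombinase nor the ages and number of the animals behind the lines is given in the sources used here. Each p-value below therefore measures the spread between these lines.

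MYC is a transcription factor that binds DNA as a dimer with MAX at the E-box CACGTG, and it is known as a driver of cell growth. The MXD and MXI1 proteins compete for MAX and repress at the same sites. Ribosome biogenesis, one of the main growth programmes under MYC, starts in the nucleolus. There RNA polymerase I transcribes the ribosomal RNA precursor, small nucleolar ribonucleoproteins (snoRNPs) modify it, and assembly factors cut and fold it into the small and large subunits.

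The E-boxes of the members' promoters are shown first, since the E-box is the sequence that MYC, MAX and the MXD proteins share. RefSeq (GRCm38.p6) gave a promoter, taken as 250 bases before to 50 bases after the gene's start, for 33 of the 40 members. The motif CACGTG, which reads the same on both strands, was in a promoter of 8 of these 33 members (24.2%). The share was 8.09% of all 27025 genes with a promoter and 11.9% of the 9653 tested genes among them. Each stretch below is written on the strand of its gene with the E-box in capitals.
Max, chr12:76962234-76962263, minus strand: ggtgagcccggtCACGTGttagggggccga
Mxd4, chr5:34187912-34187941, minus strand: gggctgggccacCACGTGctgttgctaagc
Mybbp1a, chr11:72441355-72441376, plus strand: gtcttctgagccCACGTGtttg
Nop2, chr6:125131811-125131840, plus strand: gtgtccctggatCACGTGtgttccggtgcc
Pes1, chr11:3963965-3963994, plus strand: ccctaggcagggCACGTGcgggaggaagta
Tsr1, chr11:74898092-74898121, plus strand: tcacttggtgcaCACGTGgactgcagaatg
Utp20, chr10:88826765-88826789, minus strand: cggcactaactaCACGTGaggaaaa
Wdr43, chr17:71616220-71616249, plus strand: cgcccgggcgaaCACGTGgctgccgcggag

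The E-box began 3 bases before the start in Max, 60 before it in Nop2 and 219 before it in Mxd4. In the other 5 it lay just inside the transcript, from 2 bases after the start in Pes1 to 40 after it in Mybbp1a. The variant CACGCG, searched on both strands and not overlapping in letters with CACGTG, was in a promoter of 10 of the 33 members (30.3%). The share was 10.5% of all genes with a promoter and 20.4% of the tested genes among them. A match describes letters only, and binding was not measured in these lines. The 250 bases before the start of Nop2 are given because Nop2, described below, was the only member whose level was lower in every KPCAf/f line than in every KPC line, as in 1.69% of all tested genes.
Nop2, chr6:125131633-125131882, plus strand: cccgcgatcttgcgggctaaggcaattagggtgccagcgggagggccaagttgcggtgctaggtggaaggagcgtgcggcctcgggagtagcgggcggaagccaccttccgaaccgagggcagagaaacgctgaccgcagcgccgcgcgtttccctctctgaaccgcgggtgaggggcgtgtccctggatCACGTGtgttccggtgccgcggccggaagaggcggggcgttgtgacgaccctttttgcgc

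Library depth ranged from 15124888 to 20419830 reads in genes, recovered from the normalized values. Arid1a, the gene that the second genotype is named for, was at 2267, 819.9, 3109, 2459.7 and 1915 normalized counts in KPC lines A1081, A1620, A1625, A2031 and A2032. In KPCAf/f lines A1693, A1809, A1925, A2441 and A3992 it was at 1785, 1253, 1510.0, 1258 and 1519. The groups overlapped through A1620 (2114 ± 844 against 1465 ± 221, SD, n = 5 each, exact permutation test, two-sided, p = 0.270 over 252 splits), and a count over the whole gene does not show whether floxed exons were removed. Cell type markers did differ between the genotypes. The summed level of 9 fibroblast markers was 62.9 to 173 normalized counts in KPC lines and 14627 to 88355 in KPCAf/f lines. Collagens led the KPCAf/f sums, with Col1a1 at 3259 to 17935, Col1a2 at 959 to 71336 and Col3a1 at 1043 to 11775. Pdgfra was at 198 to 3898 and Pdgfrb at 257 to 2384 in these lines. Fap was under 10 in every line, Lum in every line except A1693, and Thy1 in every line except A1693 and A3992. Dcn was under 10 in the KPC lines and A1809. Of the 9 markers 5 could be tested, and limma and edgeR called 5 higher, DESeq2 4 and limma-voom 3. The shares of all genes called higher were 1.36% (limma), 1.11% (edgeR), 4.06% (DESeq2) and 0.581% (limma-voom). The filter favours these calls, since Pdgfrb, Col1a2 and Col3a1 were under 10 in every KPC line. These genes could pass only by reaching 10 in every KPCAf/f line. With no filter, limma called 6 of the 9 higher, where it called 265 of 28712 genes higher. Summed levels of 8 pancreatic epithelial markers were 128212 to 271900 in KPC lines and 6871 to 114444 in KPCAf/f lines. Of the 8, 0 were called by limma, edgeR or limma-voom and 2 were called lower by DESeq2, where it called 1.64% of genes lower. Leaving out A1693 or A1809 gave 1 called lower with limma, where 36 and 91 of all 13089 tested genes were called lower. A1693 was at 2.70 for the pancreatic factor Pdx1 and 10.8 for E-cadherin (Cdh1). It was the lowest of the 10 lines for each marker of this list except Sox9. For Sox9 it was the highest line, at 945, and its keratins Krt8 and Krt18 were still at 2466 and 2808. The summed level of 6 macrophage and leukocyte markers was 822 to 1656 in KPC and 403 to 2399 in KPCAf/f lines, most of it from Cd14 (110 to 2126 over the 10 lines), with Cd68 at 31.3 to 293 and Csf1r at 0 to 185. The defining leukocyte marker Ptprc was at 0.84 to 11.3, Lyz2 at 0 to 20.3 and the macrophage marker Adgre1 at 0 to 0.88. Summed levels of 5 endothelial markers were 6.19 to 439 in KPC and 8.10 to 668 in KPCAf/f lines, led by Cdh5 at 0 to 644, with Pecam1 at 0 to 6.75. The part of these marker differences in the members' values was not tested, and in bulk libraries fewer cells of a type cannot be told apart from less RNA per cell.

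Myc was expressed in all 10 lines, and KPC and KPCAf/f lines did not separate by its level. Values per line are given from here on in the order of lines above. Myc (chr15:61985391-61990374, plus strand, GENCODE M21) was at 4391, 5102, 3892, 5972 and 5665 normalized counts in the KPC lines and at 11383, 4975, 3332, 2943 and 3852 in the KPCAf/f lines. A1693 alone stood above all KPC lines, and the 2 lowest lines of the 10, A2441 and A1925, were KPCAf/f as well. The means were 5004 ± 866 and 5297 ± 3487 (SD, n = 5 each). On the scale of log2(normalized count + 1), on which all fold changes below are given as KPCAf/f over KPC, the difference was -0.09 with an SE of 0.34. Its limma p adjusted over all 13089 genes by the Benjamini-Hochberg method was 0.913, the exact permutation p was 0.817, and the sign turned positive under quantile normalization (0.072), in edgeR (0.085) and in DESeq2 (0.074). Without A1693 the difference was -0.42.

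Of the MYC network, the 2 MAX-binding repressors Mxi1 and Mxd4 had the largest positive fold changes of the 40 members, but neither passed the adjusted threshold of 0.05. Mxi1 was at 816, 372, 619, 529 and 884 in KPC lines and at 1443, 1083, 1266, 1024 and 1086 in KPCAf/f lines, so that the groups did not overlap, as in 2.84% of all tested genes with the higher values in KPCAf/f lines (log2 fold change 0.93 ± 0.25 SE, adjusted p = 0.105, limma). For Mxd4 the values were 489, 419, 432, 391 and 1356 against 1869.8, 968, 1902, 897 and 1115, with 1 KPC line, A2032, inside the KPCAf/f range (1.24 ± 0.37 SE, adjusted p = 0.148, limma). Max, the shared partner, was at 1089.6, 1224, 1149, 1109 and 1261 against 1652, 1431, 1264, 1527 and 1340.1. All 5 KPCAf/f lines lay above all 5 KPC lines for Max, by a small margin (0.30 ± 0.15 SE, adjusted p = 0.373, limma). DESeq2 on the recovered reads called Mxi1 higher (adjusted p = 0.0251), as it did 4.06% of genes, and limma without A2032 called Mxd4 higher (adjusted p = 0.0243), where it called 1.1% of genes higher.

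Mxd1, another MAX-binding repressor, and Mycl, a paralog of Myc, varied widely within each genotype. Mxd1 was at 488, 189, 279, 383 and 598 in KPC lines and 126, 559.8, 379, 278 and 670.5 in KPCAf/f lines. Mycl was the lowest of the members, at 86.1, 15.9, 38.2, 71.5 and 31.96 and 10.8, 86.8, 160.2, 37.1 and 22.9. The lowest line of each genotype was the same for both genes, A1620 and A1693, and both fold changes were within 1 SE of 0. Of the 22 other network genes, such as MYC degradation and cofactor genes, 0 were called in either direction with limma, and edgeR, limma-voom and DESeq2 also called 0. At an unadjusted limma p under 0.05, 1 was higher and 1 lower, where 8.39% and 6.26% of all tested genes were. Those 2 were Mga, a MAX-binding repressor (0.84 ± 0.38 SE, adjusted p = 0.334), and Fbxw7, which targets MYC for degradation (-0.65 ± 0.23 SE, adjusted p = 0.216), followed by the chromatin ATPase Ruvbl1 (-0.45 ± 0.22 SE, adjusted p = 0.371).

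**Figure D1:**
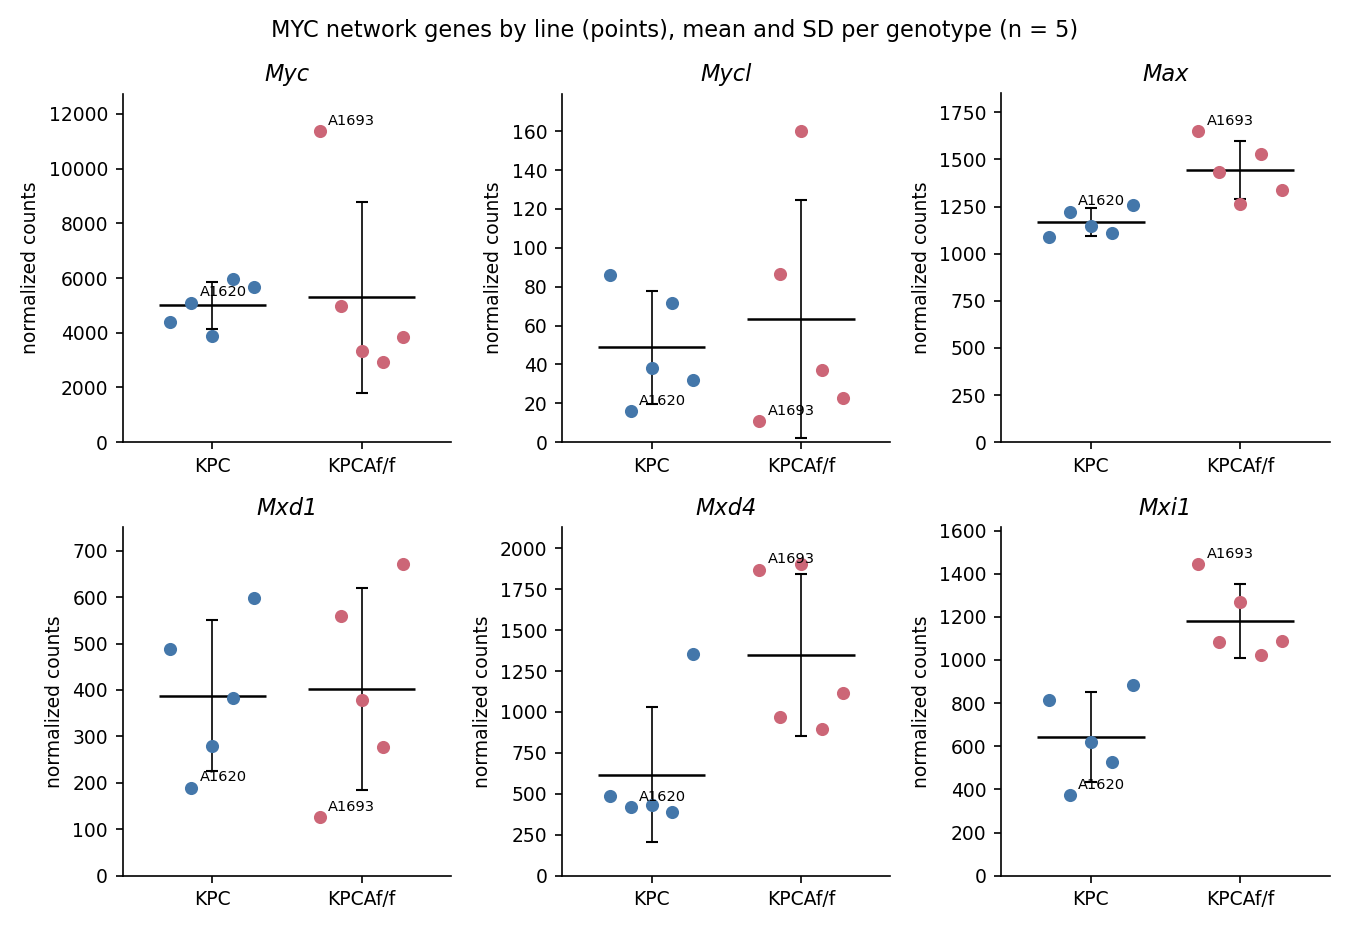
Normalized counts of the 6 MYC network genes (y axis, linear from 0) in 5 KPC and 5 KPCAf/f lines. Each point is 1 line, horizontal lines are the means and vertical bars the SD of each genotype, and A1620 and A1693 are named. Max and Mxi1 do not overlap between the genotypes, and Myc in A1693, at 11383, stands far above the other lines.

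The 34 nucleolar and metabolic members had lower mean levels in KPCAf/f than in KPC lines for the most part, by differences that did not pass the test gene by gene. With limma 0 of the 40 members were called in either direction, where 1.75% of all tested genes were called (1.36% higher and 0.39% lower), so the count of 0 does not set them apart. At an unadjusted p under 0.05, 2 members were higher and 9 lower, where 8.39% and 6.26% of all tested genes were. edgeR (1.11% of genes higher and 0.206% lower) and limma-voom (0.581% and 0.222%) called 0 members too, and DESeq2 called Mxi1 higher and Nop2 and Rrp12 lower (adjusted p = 0.0334 and 0.0440), where it called 1.64% of genes lower. The log2 fold change was below 0 for 31 of the 34 members (91.2%), for 50.8% of all tested genes, and for 56.1% of the 7011 tested genes with a mean of at least 500. Its median over the 34 was -0.40, beside -0.01 over all tested genes. Over the settings tried, the median of the 34 ran from -0.25 under quantile normalization to -0.50 without A2032. The members are not independent of each other, so these counts are descriptions. Xist, the RNA of the inactive X, was at most 6.63 normalized counts in the KPC lines and A1693 and at least 5278 in every other KPCAf/f line. Grouping by genotype and by Xist level thus differ in A1693 alone. Their parts in these differences cannot be told apart and were not tested.

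The 3 hub proteins of the nucleolus had a median of -0.58, and of -0.26 under quantile normalization. Ncl, nucleolin, was at 37764, 58046, 44596, 36722 and 20833 in KPC lines and at 42434, 28228, 24358, 30242 and 26007 in KPCAf/f lines. Its fold change was -0.34, and -0.18 without A1620. For Npm1, nucleophosmin, the values were 24284, 37448, 34217, 23475 and 20894 and 35728, 12852, 14130.2, 13466 and 19573. Mybbp1a, a nucleolar MYB-binding protein, was at 11451, 12185, 17339.9, 15186 and 11452 and 13414, 10068, 7362, 9999 and 5624. In Npm1 every KPCAf/f line except A1693 lay below every KPC line, and in Mybbp1a the overlap came from A1693 alone as well (log2 fold change -0.58 ± 0.25 SE, adjusted p = 0.318, limma). Per kilobase of longest annotated transcript Npm1 was the most abundant member, at 17185 normalized counts per kilobase in KPC and 11727 in KPCAf/f lines, followed by Ncl at 4827 and 3689.

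All 8 snoRNP proteins had a fold change below 0, with a median of -0.51. Fbl, the methyltransferase of the box C/D particles, was at 1412, 4648, 1356, 1664 and 1271 in KPC lines and 1827, 963, 1052, 1001 and 1065 in KPCAf/f lines. Gar1, a core protein of the box H/ACA particles that make pseudouridine, was at 914, 2591, 1229, 1609 and 1694 and 1090.2, 1005, 826, 732 and 1009.7. Nolc1, a chaperone of snoRNPs, was at 8138, 10443, 8392, 9558 and 4676 and 5972, 5374, 4472, 5909 and 4586. Their adjusted p-values with limma were 0.419 for Fbl, 0.247 for Gar1 and 0.251 for Nolc1. In each of the 3 genes A1620 was the highest of the 10 lines, and without it the fold change of Fbl went from -0.65 to -0.31. Nhp2, another small H/ACA core protein, was at 10788 in A1620 and at 1457 to 2920 in the other 9 lines, and its fold change went from -0.83 to -0.41 without A1620. The box C/D core proteins Nop56 and Nop58, the U3 protein Rrp9 and the pseudouridine synthase Dkc1 had log2 fold changes of -0.42, -0.40, -0.07 and -0.24, and without A1620 Rrp9 turned to 0.15 and Dkc1 went to -0.44. Dkc1 is X-linked, and the level of Xist, the RNA of the inactive X, was at most 6.63 normalized counts in the KPC lines and A1693 and at least 5278 in the other 4 lines. Dkc1 ran from 1965 to 2850 in those 4 lines and from 1750 to 4486 in the other 6, and the part of the X in this was not tested.

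The 3 RNA polymerase I subunits had a median of -0.08, which ran from -0.20 without A1620 to 0.04 without A2031 and was -0.28 with a correction for transcript length. Polr1c, a subunit shared with RNA polymerase III, was at 1420.0, 3012, 1228, 1800.3 and 1859 in KPC lines and 1313, 1062, 1035, 1080.3 and 1277 in KPCAf/f lines (-0.63 ± 0.24 SE, adjusted p = 0.250, limma), and the overlap came from A1625, the lowest KPC line. The 2 largest subunits, Polr1a and Polr1b, had fold changes of 0.05 and -0.08, and of -0.19 and -0.20 without A1620. Of the 17 other tested genes of this machinery, 0 were called in limma and 14 were below 0, with a median of -0.40. Without A1620 12 were below 0 and the median was -0.17. Among them Polr1e (-0.66 ± 0.21 SE, adjusted p = 0.173), the initiation factor subunit Taf1d (-0.55 ± 0.20 SE, adjusted p = 0.243) and Polr2h (-0.78 ± 0.29 SE, adjusted p = 0.251) had the smallest p, and 3 of the 17 had an unadjusted p under 0.05, all of them lower, where 6.26% of all tested genes were. DESeq2 called 1 of the 17 lower, where it called 1.64% of genes lower, and edgeR and limma-voom called 0.

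Small subunit factors had a median of -0.39, with 5 of 7 below 0. Rrp12, a factor of pre-40S export, was at 1682, 1986, 2042, 2214 and 866 in KPC lines and 926, 982, 866, 1228 and 928 in KPCAf/f lines. A2032 was the only KPC line inside the KPCAf/f range, and without it the log2 fold change of Rrp12 went from -0.77 (adjusted p = 0.193) to -1.01 (adjusted p = 0.0240, limma), where 0.191% of genes were called lower. Tsr1, a late factor of the 40S subunit, was at 2619, 2864, 3949, 3279 and 2864 and 2803, 1917, 1969, 2281 and 2499 (adjusted p = 0.282, limma), overlapping through A1693. Its exons share 1240 bases with Srr on the other strand, and no source used here gives the strand setting of the authors' counting, which leaves its reads uncertain. Wdr43, Noc4l and the RNA cytidine acetyltransferase Nat10 had fold changes of -0.43, -0.39 and -0.38, and the large processome proteins Utp20 and Heatr1 of 0.08 and 0.28. Without A1620 the last 2 were -0.09 and 0.10. Of 43 other small subunit factors, 38 were below 0 with a median of -0.29, and without A1620 35 were with a median of -0.18. Of the 43, 3 had an unadjusted p under 0.05, all lower, near the share of 6.26% of all tested genes. None of the 43 was called with limma, edgeR or limma-voom, and DESeq2 called 1 lower, near its share of 1.64%. Utp14a (-0.65 ± 0.18 SE, adjusted p = 0.122), whose groups did not overlap, Bysl (-0.52 ± 0.19 SE, adjusted p = 0.243) and Ltv1 (-0.50 ± 0.23 SE, adjusted p = 0.337) led by p.

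Large subunit factors held the member with the smallest p among those below 0. Nop2, an rRNA cytosine methyltransferase, was at 4038, 5226, 3877, 4900.4 and 3692 in KPC lines and 3521, 3005, 2427, 2967 and 2314 in KPCAf/f lines. The lowest KPC line, A2032, stood just above the highest KPCAf/f line, A1693, so that Nop2 was the only member lower in every KPCAf/f line, while Max and Mxi1 were the only members higher in every KPCAf/f line (-0.61 ± 0.18 SE and adjusted p = 0.132 for Nop2, limma). Bop1, which forms the PeBoW complex with Pes1 and Wdr12, was at 2747, 4534, 3372, 3673 and 2741 and 2031.8, 1668, 1563, 2967 and 2143 (-0.73 ± 0.22 SE, adjusted p = 0.146, limma). Its partners had smaller fold changes, -0.25 for Pes1 and -0.22 for Wdr12, and these were -0.12 and -0.01 without A1620. The RNA helicase Ddx21 was at 6417, 6516, 9447, 8967 and 6286 and 7149.7, 5544, 4807, 4266 and 5608 (adjusted p = 0.323, limma), overlapping through A1693. Rrs1, a factor of 5S particle recruitment, and Gnl3, nucleostemin, had fold changes of -0.10 and -0.22, and of 0.07 and -0.13 without A1620.

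Nop16, Ppan and Rrp1b, 3 further factors of the large subunit, are given by line because they are among the 5 members with the largest positive coefficient for Myc below. Nop16 was at 723, 2427, 781, 1342 and 1037 in KPC lines and 1538, 736, 1005, 851 and 1344 in KPCAf/f lines, and Ppan at 1999, 4719.6, 1315, 1919 and 1636 and 1906, 1641, 1115, 1188 and 1289. Rrp1b was at 1336, 1003, 1188, 1835 and 1122 and 1706, 1303, 911, 1279 and 738. A1620 was by far the highest line for Nop16 and Ppan and the lowest KPC line for Rrp1b, and the fold change of Nop16 was -0.11 with all lines, 0.16 without A1620 and 0.04 with a correction for transcript length. Ppan went from -0.57 to -0.28 without A1620, and Rrp1b from -0.15 to -0.24. Of 46 other large subunit factors, 40 were below 0 with a median of -0.27, 5 had an unadjusted p under 0.05, all lower, where 6.26% of all tested genes were, and 0 were called with limma, edgeR or limma-voom, while DESeq2 called 2 lower, where it called 1.64% of genes. Rpf1 (-0.71 ± 0.21 SE, adjusted p = 0.149), Las1l (-0.51 ± 0.16 SE, adjusted p = 0.166), without overlap between the groups, and the export adaptor Nmd3 (-0.59 ± 0.21 SE, adjusted p = 0.229) had the smallest p.

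The 3 metabolic targets are Odc1 and Srm, which make polyamines, and Cad, the first enzyme of pyrimidine synthesis. Their log2 fold changes were -0.46, -0.39 and -0.18, and all 3 overlapped between the genotypes. Srm was at 7035 in A1620 and 1524 to 3485 in the other 9 lines, and without A1620 its fold change was -0.05. That of Cad went to -0.33 without A1693. Of 31 other metabolic targets, 27 were below 0 with a median of -0.37, and 0 were called with limma or any of the 3 count tests. At an unadjusted limma p under 0.05, 6 of the 31 passed, all lower, where 6.26% of all tested genes were. Amd1 (-0.66 ± 0.23 SE, adjusted p = 0.227) and Sms (-0.60 ± 0.23 SE, adjusted p = 0.259), 2 further polyamine genes, and the chaperone Fkbp4 (-0.57 ± 0.21 SE, adjusted p = 0.240) led by p. Proliferation markers were below 0 in 11 of 12 cases as well, with a median of -0.21 (-0.07 under quantile normalization, -0.13 without A1625, -0.34 without A2032 and -0.31 without A1693) and 0 called by any of the 4 tools. Of the 12, 1, Birc5, had an unadjusted p under 0.05 (-0.77 ± 0.32 SE, adjusted p = 0.294, limma), where 6.26% of all tested genes were lower, followed by Cdk1 (-0.51) and Mcm2 (-0.31).

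**Figure D2:**
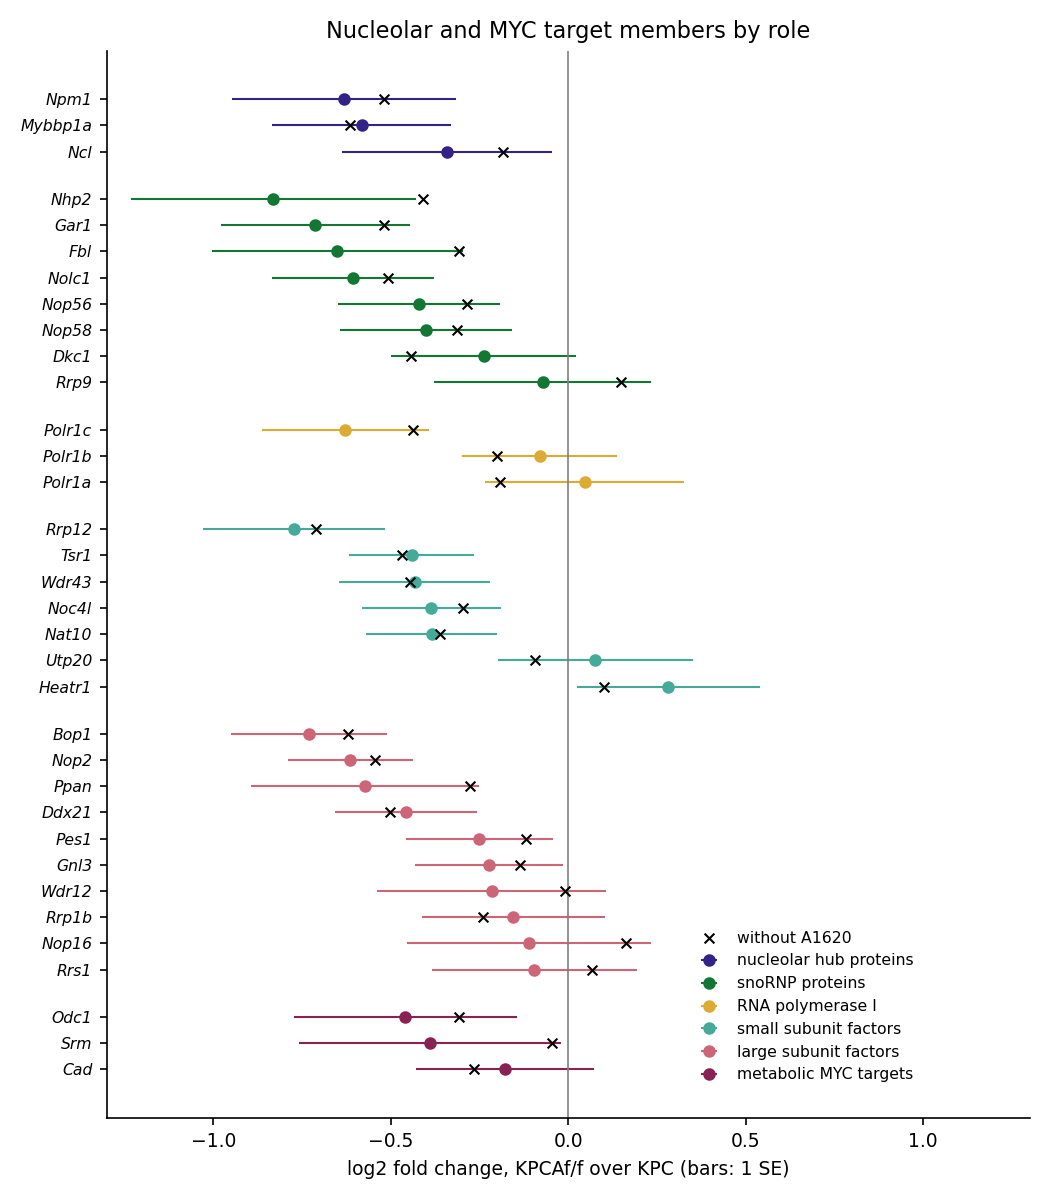
Log2 fold change of each of the 34 nucleolar and metabolic members, KPCAf/f over KPC (x axis), by role, with bars of 1 SE from limma over 10 lines. Black crosses give the value without A1620. Of the 34 points 31 lie below 0, and the crosses of Nhp2, Fbl and Ppan lie nearer to 0 than their points.

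The SD of log2 level over the 5 lines had a median of 0.47 in KPC and 0.31 in KPCAf/f lines over the 34 members, close to the medians of 0.49 and 0.34 over tested genes with a mean of at least 500. The mean log2 level of the 34 members relative to the mean of all lines was 0.03, 0.51, 0.20, 0.37 and -0.18 in the KPC lines. In the KPCAf/f lines it was 0.19, -0.25, -0.41, -0.21 and -0.24. A2032 lay in the range of the KPCAf/f lines and A1693 in that of the KPC lines, while the other 4 lines of each genotype did not overlap. The mean over 12 proliferation markers was 0.07, 0.34, 0.31, 0.31 and -0.40 in KPC and 0.18, -0.23, -0.40, 0.05 and -0.22 in KPCAf/f lines. The lowest KPC line, A2032, and the highest KPCAf/f line, A1693, were thus the same in both measures, and the part of proliferation in the member level was not tested.

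**Figure D3:**
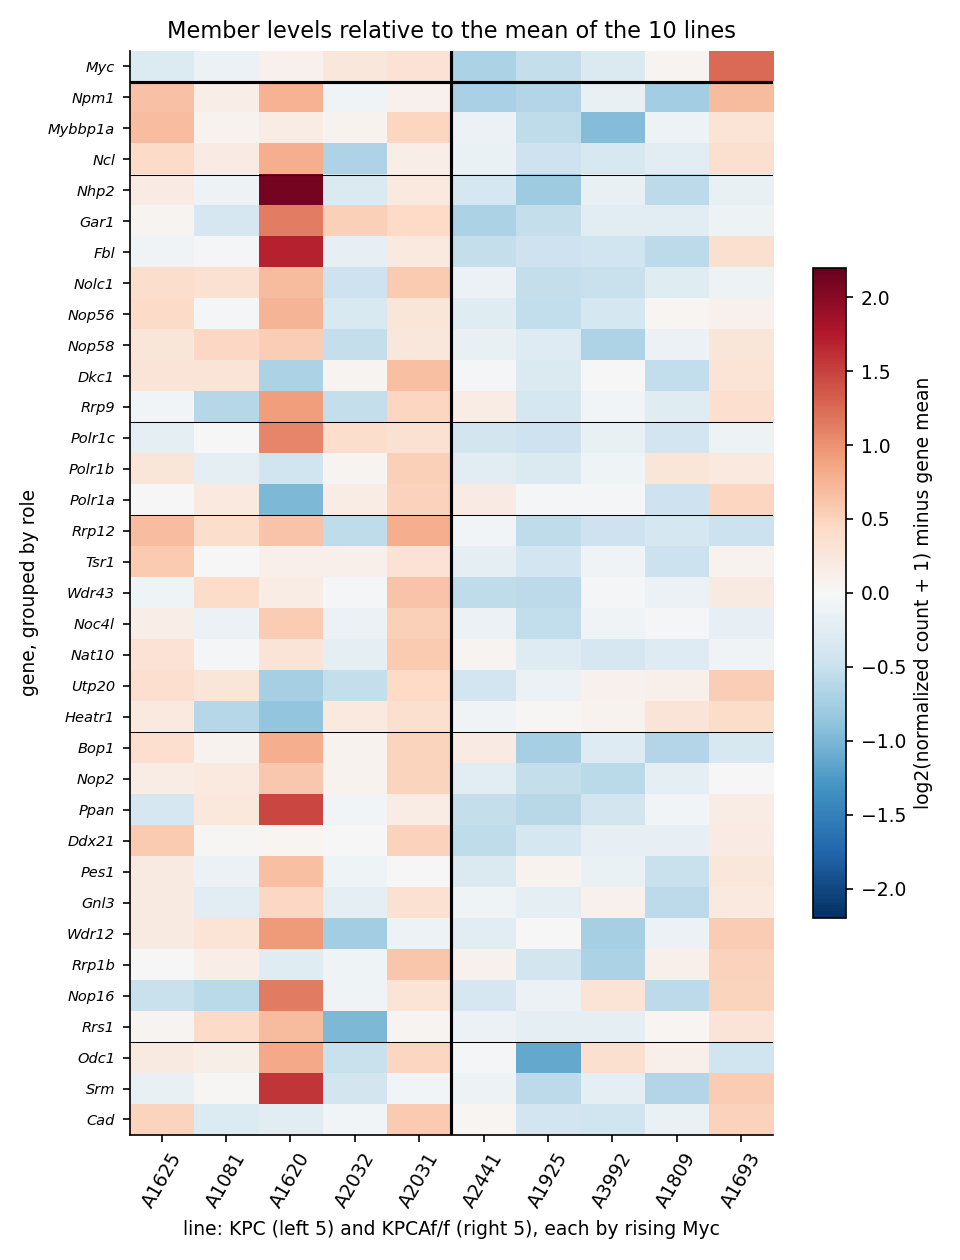
Log2(normalized count + 1) minus the mean of the gene over 10 lines (colour) for Myc and the 34 members (rows, grouped by role), with KPC lines left and KPCAf/f lines right of the black line, each ordered by Myc. A1693 is the reddest KPCAf/f column, and A1620 holds the strongest red and also several blue cells.

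A1620 was the highest KPC line for 21 of the 34 members and the lowest for 6. These counts have no share over all tested genes beside them, so they do not set the members apart. In A1620 the members split by transcript length. Among the 17 members whose longest annotated transcript is at most the median of 3419.5 bases, 15 were highest in A1620, and among the 17 longer ones 6 were. Nhp2 (1042 bases) was 2.10 log2 units above the mean of the other 4 KPC lines, and Srm (1338 bases) 1.71. Polr1a (9216 bases) was at -1.20 log2 units from that mean, with 1653 in A1620 against 3231 to 4641 in the other 4 KPC lines. The correlation of this difference with log2 length was r = -0.60 across the 34 genes, which are not independent replicates. Over all genes the slope per doubling of length was -0.65 in A1620, while it was between -0.02 and 0.04 in the other KPC lines and between 0.10 and 0.15 in KPCAf/f lines. After a correction for length in each line the median log2 fold change of the 34 members was -0.46, and without A1620 it was -0.30. The longest annotated transcript need not be the one expressed, which leaves the corrected value uncertain. Wdr12 and Ncl, at 10012 and 8202 bases, were highest in A1620 like the short members. The correction took Wdr12 from -0.22 to -0.56 and Ncl from -0.34 to -0.63, away from their -0.01 and -0.18 without A1620. Srm went from -0.39 to -0.16, toward its -0.05 without A1620.

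A1693, the line with the highest Myc, was the highest KPCAf/f line for 28 of the 34 members and the lowest for none. The counts in this paragraph have no share over all tested genes beside them, so they do not set the members apart. Npm1 was 1.27 log2 units above the mean of the other 4 KPCAf/f lines, Srm 0.93 and Fbl 0.84. Without A1693 the fold changes between genotypes of Wdr12, Rrp1b, Nop16, Rrs1 and Rrp9 were -0.38, -0.30, -0.25, -0.18 and -0.17, and those of Polr1a and Utp20 turned to -0.06 and -0.05. Short and long members did not split in A1693, with 14 of 17 highest in each of the 2 length classes. Over all 10 lines A1693 was the highest for 2 members, A1620 for 21, A2031 for 8 and A1625 for 3. The lowest of the 10 lines was A1925 for 10 members, and A1809 and A3992 for 6 each.

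The tie of the members to Myc was asked at a fixed genotype, as the log2 change of a gene per doubling of Myc. With limma 0 of 39 members were called, with an adjusted p of at least 0.831, and 0 had an unadjusted p under 0.05, where 0.986% of all genes did with a positive and 5.52% with a negative coefficient. Of all 13088 other tested genes 2 were called (0.0153%), and edgeR, DESeq2 and limma-voom called 0.0382%, 0.584% and 0.0458% of genes and 0 members. The coefficient was above 0 for 31 of the 34 members (91.2%) and for 49.9% of all genes, with a median of 0.24 beside 0.00. Myc in A1693 is 3.07 times the geometric mean of the other KPCAf/f lines. Without A1693 the coefficient was above 0 for 17 of 34, with a median of -0.01, and without A1620 and A1693 for 16. The excess of positive over negative coefficients therefore rested on A1693.

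The 5 members with the largest coefficients were Npm1 (0.54 ± 0.27 SE), Fbl (0.45 ± 0.33), Nop16 (0.44 ± 0.32), Ppan (0.42 ± 0.30) and Rrp1b (0.41 ± 0.23). Without A1693 they were -0.36, 0.18, 0.52, 0.71 and 0.27, so that Npm1 changed sign. The 3 lowest coefficients were those of Mycl (-1.10 ± 0.65 SE), Mxd1 (-0.65 ± 0.43) and Rrp12 (-0.14 ± 0.26), and those of Mycl and Mxd1 turned to 0.17 and 1.05 without A1693. Wdr43, with a coefficient of 0.38 ± 0.18, had the smallest p of the members and was at 0.61 without A1693.

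Pooled over 10 lines with no genotype term, Pearson's r with log2 Myc was above 0 for 31 of the 34 members, from -0.07 to 0.61 with a median of 0.32, and Spearman's rho was above 0 for all 34, with a median of 0.45. Over 13088 genes r was above 0 for 49.2%. For Wdr43 r was 0.61 (permutation p = 0.064) and rho 0.76 (permutation p = 0.015), and both p-values were 1.0 after adjustment over 13088 genes. By unadjusted permutation p under 0.05, 0 members passed by r and 6 by rho, where 0.986% and 1.86% of all genes passed with a positive value, and after adjustment 0 of 39 members and 0 of 13088 genes passed by either. Without A1693 and A2441, the 2 lines farthest from the median Myc, r was above 0 for 30 of 34 with a median of 0.36. After correction for length it was above 0 for 29. Within genotype it was above 0 for 31, but by construction its sign is that of the coefficient at fixed genotype, so this is the same result and no further check. Without A1693 alone the pooled r was above 0 for 33 of 34, while the coefficient at fixed genotype was above 0 for 17: in the remaining 9 lines Myc and the member level were both higher on average in KPC than in KPCAf/f lines.

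**Figure D4:**
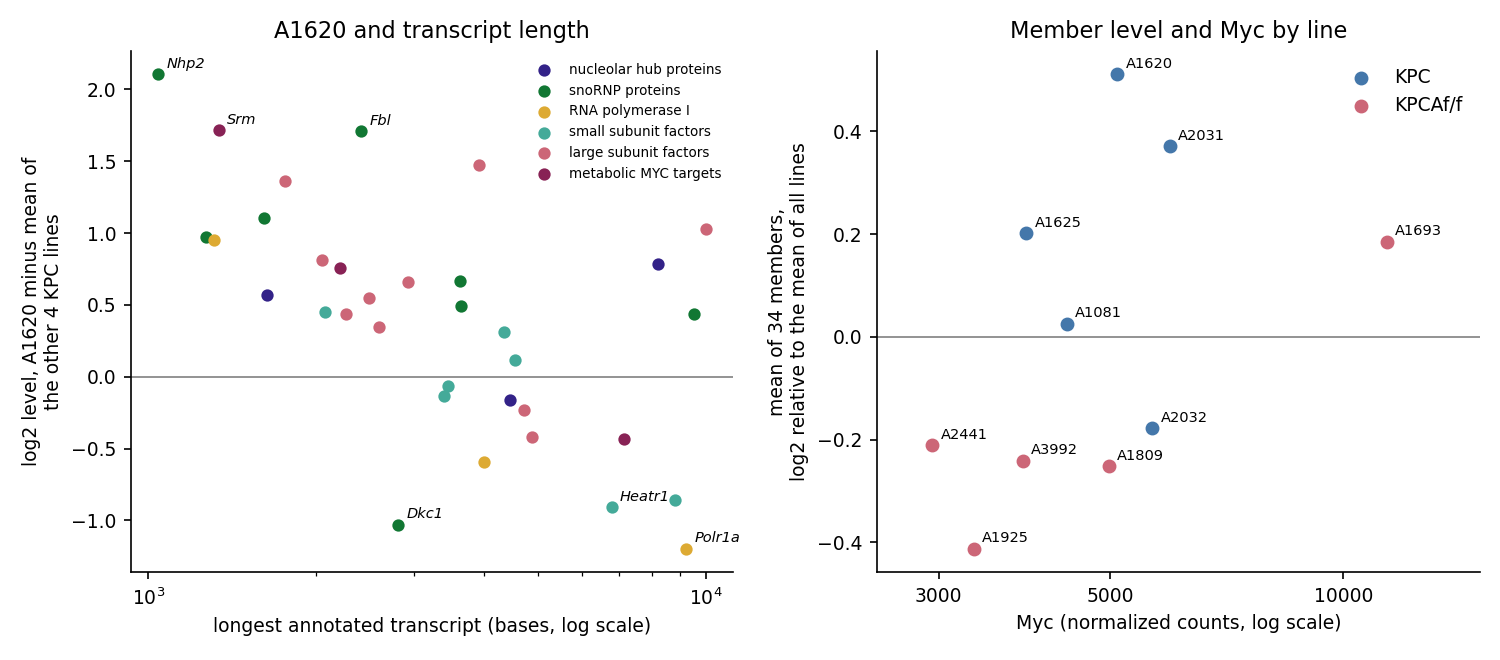
Left, log2 level of the 34 members in A1620 minus the mean of the other 4 KPC lines (y axis) against the longest annotated transcript in bases (log axis), coloured by role. Right, mean log2 level of the 34 members in each line (y axis) against Myc in normalized counts (log axis). Short members lie high in A1620, and A1693 lies at the far right with a member level of 0.19, inside the KPC range.

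The 5 tested genes with the pattern most like that of Myc, by r over 10 lines, were 9930014A18Rik (0.94), Cdc26 (0.88), Mllt3 (0.88), Sympk (0.87) and Mpp6 (0.87), none of them a member. 9930014A18Rik is a non-coding transcript on the same chromosome, with its start at -1163 kb from that of Myc. It was at 2638 normalized counts in A1693 and at 46.1 to 233 in the other 9 lines.

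Genes around Myc on chromosome 15 were read because Myc stood apart in A1693. Within 1000000 bases on either side, 2 other genes were tested. Pvt1, a long non-coding RNA gene that starts 52.6 kb after the Myc start, was at 3188 in A1693 and at 150 to 285 in the other 9 lines. Tsg101-ps, a pseudogene, was at 16.2 in A1693 and at 2.94 to 17.5 in the others. In a window of 3000000 bases on either side, which was chosen after these values were seen, A1693 was the highest line for 6 of 12 tested genes, Myc included. This count has no share over all tested genes beside it, so it does not set the window apart from other regions. Fam84b was at 7359 against 553 to 4104, Trib1 at 1315 against 510 to 1045 and Adcy8 at 92.7 against 0 to 82.6. Asap1 and Nsmce2 lay inside the range of the other lines, as did Fam49b, and Sqle, at 2594, below it.

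**Figure D5:**
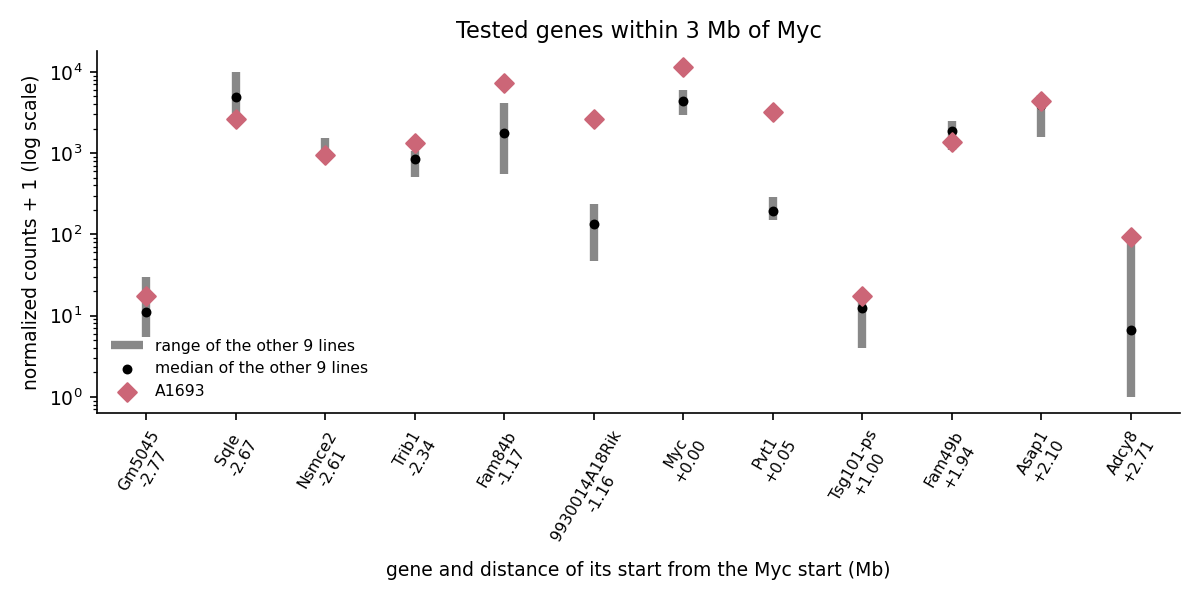
Normalized counts + 1 (y axis, log scale) of the 12 tested genes within 3000000 bases of Myc, ordered by the distance of their starts from the Myc start in Mb (x axis). Diamonds are A1693, grey bars the range and black dots the median of the other 9 lines. The diamonds of Pvt1 and 9930014A18Rik lie more than 10-fold above every other line.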

How the data were processed

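Messenger RNA was measured in 10 cultured lines, 1 library each, with genotypes from the labels. The deposited unit is a signal, normalized gene counts that the authors made with DESeq2 1.14.1, after STAR 2.5.2b and featureCounts (Subread 1.5.0p3), per the submitters' processing notes, which name GRCm38.p5 and mm9 with no role. No source used here gives the strand setting or annotation of the counting. Stranded TruSeq mRNA libraries were made, per the labels' protocols. The members and lists were chosen with earlier results of these data known.

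Genotypes were compared with limma 3.58.1 (two-sided, intensity trend, R 4.3.3) on log2(normalized count + 1), for genes at 10 or more in 5 or more lines, with Benjamini-Hochberg adjustment over 13089 genes. A second limma fit added log2 Myc to genotype, and correlations used 100000 permutations. Whole reads came out for 100% of values within 0.001 read. On these reads edgeR 4.0.16 called 145 genes higher and 27 lower, DESeq2 1.42.0 521 and 210, and limma-voom 76 and 29. Libraries differed beyond sampling noise in all 45 pairs (lowest chi-square per degree of freedom 60.6). All fits were tested on simulated data. Positions and lengths are from GENCODE M21, which held 47240 (95.3%) of the gene symbols, and 171 of 179 listed pathway names were in the table. Values per line are given for network members, members with an unadjusted p under 0.05 and the 5 highest and 3 lowest coefficients for Myc, then 3 genes of each further list by p, the 5 genes most like Myc and tested genes within 1000000 bases of it.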

Additional observations from a re-analysis of the deposited data

Results flagged for a closer look

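In 8 of the 86 groups of 5 lines examined, 1 line stood apart from the other 4 by a gap of more than 0.71 of the group's range, each time at the high end. This cutoff is meant for 1 in 20 groups of normally distributed values. The values here were counts without a log scale, and the groups share the same lines, so 8 of 86 cannot be set against that rate. Pvt1 was included because Myc stood apart in A1693. Among KPC lines A1620 was such a line for Fbl (4648 normalized counts), Nhp2 (10788), Ppan (4720) and Srm (7035), and A2032 for Mxd4 (1356). Among KPCAf/f lines A1693 was such a line for Myc (11383), Fbl (1827) and Pvt1 (3188). Of these 8 values 7 belong to A1620 or A1693.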

How the results depend on the processing

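The median log2 fold change of the 34 members outside the MYC network stayed below 0 under every alternative run, from -0.50 to -0.25. Of the 40 members, 1 was called higher and 2 lower with DESeq2, and leaving out 1 line gave 0 to 1 higher and 0 to 1 lower, with the 1 of each found without A2032. The number of the 34 with a positive coefficient for Myc ran from 17 (without A1693) to 33 over the 10 fits that left out 1 line, and was 16 without A1620 and A1693. Myc itself had a fold change of 0.072 under quantile normalization, 0.085 in edgeR and 0.074 in DESeq2, and from -0.42 to 0.071 with 1 line left out, above 0 without A1925 (0.026) and A2441 (0.071). Coefficients for Myc with 1 line left out ran from -0.36 to 0.62 for Npm1, from -0.93 to 1.05 for Mxd1 and from -1.44 to 0.17 for Mycl, and without A1620 and A1693 they were -0.40, 1.15 and 0.30. The cause was not tested. The median of the 22 other MYC network genes went from 0.08 to -0.11 without A1620. The correction for length without A1620 and the correlation without A1693 were chosen after seeing the data. No paired analysis was possible because the labels give the lines no replicate numbers, so that no line of 1 genotype is tied to a line of the other. Depth did not limit the members outside the network, the lowest of which was at 555 normalized counts in any line, while Mycl, at 10.8 to 160.2, rests on few reads.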
